A study of Mus musculus and Homo sapiens with 180 samples.

Results

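In MOLM13 leukaemia cells edited at PCGF1, 93 genes that were all but silent in control cells reached a clear RNA level. MOLM13 is a human acute myeloid leukaemia line that carries an MLL-AF9 fusion. A gene belonged to this set if its level averaged under 1 CPM (the count on a gene, scaled to a library total of 1000000 reads on genes) over the 3 control libraries in DMSO, and 4 CPM or more over the 3 PCGF1 KO libraries in DMSO. Of 63152 gene rows, 51386 were under 1 CPM in the control cells, 15240 of those had at least 1 count in some library, and 93 (0.61% of the 15240) met the second limit. The reverse rule, 4 CPM or more in control cells and under 1 CPM in PCGF1 KO cells, was met by 10 genes. The genes were thus selected on their measured levels in the control and PCGF1 KO libraries in DMSO, and their levels there are a description that was not tested. The questions that could be tested are whether the genes were also high in PCGF1 KO libraries that did not choose them, and in cells without BCOR, in a second line and in a separate experiment.

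The MOLM13 knockout experiment held 27 libraries, 3 in each of 9 groups: cells with a non-targeting guide (control), PCGF1 KO and BCOR KO, each in DMSO, in 5 µM SGC0946 (DOT1Li) or in 500 nM VTP50469 (MENi). SGC0946 inhibits the histone methyltransferase DOT1L, VTP50469 blocks the binding of Menin to MLL proteins, and the study's methods give SGC0946 the longer exposure. The labels give the DMSO libraries the time of the SGC0946 ones, so VTP50469 differs from both in drug and in time together. The KO cells were Cas9 populations carrying a guide, whereas in MV4;11, a second MLL-fusion leukaemia line, the PCGF1 KO was a single clone, compared with cells carrying a safe-targeting guide under the same treatments (18 libraries). In DMSO that table also held pools of edited cells, which the labels do not tell from the clone, and the clone and guide present under all 3 treatments were used. The washout experiment held 24 MOLM13 libraries, from control cells and cells labelled PCGF1/BCOR KO, in DMSO, in 500 nM VTP50469 for 96 h, or after a further 48 h or 96 h without the drug. By the study's methods RNA was read from its 3′ end, so that a count should not grow with gene length. Other differences between genes in how reads were captured were not measured, so CPM levels compare genes only roughly. In bulk RNA, more cells expressing a gene and more RNA per cell cannot be told apart.

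PCGF1 defines the variant Polycomb complex PRC1.1, in which it works with the corepressor BCOR (or its relative BCORL1), the CpG-binding protein KDM2B and a RING1 E3 ligase. KDM2B brings the complex to CpG islands, where it places ubiquitin on histone H2A at lysine 119. This mark is tied to the repression of developmental regulators, and in myeloid cells BCOR and PCGF1 are known as restraints on stem cell and alternative lineage genes.

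Because PRC1.1 is recruited to CpG islands, the 250 bases before the start site of 5 of the genes are shown, with each CpG dinucleotide in capitals. The sequences are on GRCh38, 5′ to 3′ on the strand of the gene, and start sites are those of the canonical GENCODE v44 transcript. OTP (chr5:77638714-77638963, minus strand, 20 CpG) and SP9 (chr2:174334704-174334953, plus strand, 20 CpG) were among the transcription factor genes whose level was lower under both drugs. IGFBP2 (chr2:216633170-216633419, plus strand, 22 CpG) was high without PCGF1 but not without BCOR. PTPRS (chr19:5340813-5341062, minus strand, 44 CpG) is one of the most CpG-rich. CD36 (chr7:80638392-80638641, plus strand, 1 CpG) is a CpG-poor example at its canonical start, and it was higher under both drugs.
OTP: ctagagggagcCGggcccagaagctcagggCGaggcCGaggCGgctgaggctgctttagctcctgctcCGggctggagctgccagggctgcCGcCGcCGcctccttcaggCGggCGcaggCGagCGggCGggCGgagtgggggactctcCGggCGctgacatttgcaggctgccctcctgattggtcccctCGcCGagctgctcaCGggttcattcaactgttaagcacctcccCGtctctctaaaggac
SP9: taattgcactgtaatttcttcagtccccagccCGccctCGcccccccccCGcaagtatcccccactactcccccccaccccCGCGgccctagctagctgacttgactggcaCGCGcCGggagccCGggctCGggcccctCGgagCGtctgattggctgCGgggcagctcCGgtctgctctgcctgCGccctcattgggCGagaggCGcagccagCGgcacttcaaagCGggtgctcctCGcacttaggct
IGFBP2: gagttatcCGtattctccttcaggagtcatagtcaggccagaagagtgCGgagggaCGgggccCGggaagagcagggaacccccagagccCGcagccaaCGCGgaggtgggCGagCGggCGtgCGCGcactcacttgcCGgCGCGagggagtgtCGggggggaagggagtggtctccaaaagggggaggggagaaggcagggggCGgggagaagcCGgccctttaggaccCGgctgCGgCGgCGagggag
PTPRS: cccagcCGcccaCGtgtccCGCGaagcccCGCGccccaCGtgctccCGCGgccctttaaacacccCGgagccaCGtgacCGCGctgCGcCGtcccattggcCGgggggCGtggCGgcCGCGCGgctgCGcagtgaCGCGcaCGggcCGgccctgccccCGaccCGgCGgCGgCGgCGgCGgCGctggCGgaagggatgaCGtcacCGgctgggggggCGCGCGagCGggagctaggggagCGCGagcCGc
CD36: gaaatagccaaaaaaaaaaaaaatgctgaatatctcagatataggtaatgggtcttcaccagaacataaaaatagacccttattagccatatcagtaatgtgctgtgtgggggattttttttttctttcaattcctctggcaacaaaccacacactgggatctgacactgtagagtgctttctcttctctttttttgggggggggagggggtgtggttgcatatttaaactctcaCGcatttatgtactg

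The 84 protein-coding genes of the set had a median of 27 CpG in these 250 bases, with a range of 0 to 47. The median was 22 for the 10242 other protein-coding genes tested in MOLM13, and 13 for the 4559 protein-coding genes that were under 1 CPM in both control and PCGF1 KO cells. A CpG island (GC of 50% or more and an observed over expected CpG ratio of 0.6 or more in the 1000 bases centred on the start site) was present at 90.5% of the 84 genes, at 86.5% of the other tested genes and at 49.2% of the genes silent in both. FOXP2, a transcription factor of the forkhead family, had 0 CpG and CD36 had 1. The canonical start of both lies far inside the annotated gene, and the start site in use was not measured. NR2F1, the gene with the highest level in PCGF1 KO cells, had 8 CpG and no island in the window on its canonical start (GC 47.9%, ratio 0.43). The start of NR2F1-AS1, 2443 bases away, had 20 CpG and an island (GC 58.5%, ratio 0.88). DLX3, a homeobox gene of the set, had no island in its window (ratio 0.56). The share with an island was 91.7% of the 24 genes also called higher without BCOR under both drugs, and 92.3% of the 39 genes that stayed under 1 CPM in BCOR KO cells in DMSO. These are counts of letters in a window, and no binding was measured here.

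**Figure D1:**
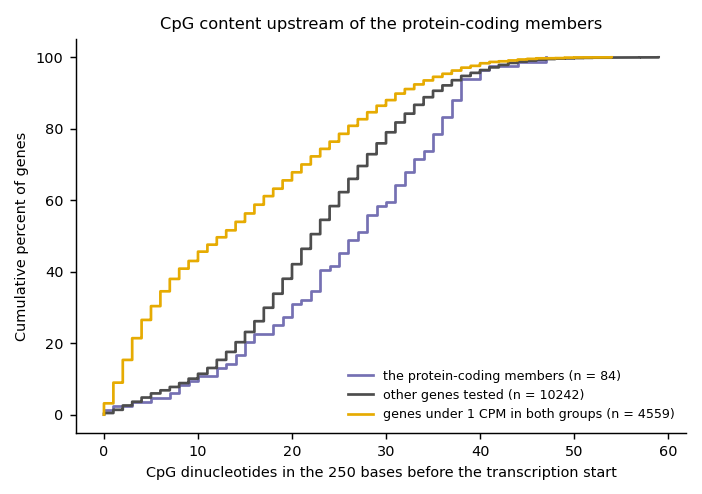
Cumulative percent of genes (vertical axis) against the number of CpG dinucleotides in the 250 bases before the start site (horizontal axis), for the 84 protein-coding genes of the set, 10242 other tested genes and 4559 genes under 1 CPM in both groups. The curve of the set lies furthest to the right over most of its range, with medians of 27, 22 and 13.

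Of the 93 genes, 84 were annotated as protein-coding and 4 as long non-coding RNA in GENCODE v44, 2 were pseudogenes (MT1L and BRAFP1) and 3 had no entry. There were 7 on chromosome X, or 7.78% of those annotated, against 3.24% of the 11837 annotated genes tested. Few of the genes were neighbours. LINC01305 and SP9 lay on chromosome 2 with 4310 bases between them, and NR2F1-AS1 overlapped NR2F1 on chromosome 5, so that with no stated strand setting reads of the pair could not be told apart. LRRC26 and RNF208 lay 50195 bases apart, DUSP9 and SRPK3 125085 bases apart, TMSB15A and BEX1 545911 bases apart, and SLC35F1 and MAN1A1 859528 bases apart, each pair with 3 or 4 other tested genes between.

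Just inside the limit of 4 CPM were the non-coding gene ENSG00000272078 and RTL8B at 4.0018 and 4.0281 CPM. Just outside were ATP1B1, a subunit of the sodium pump, HIP1R and RHPN2, at 3.9988, 3.942 and 3.9078 CPM. At the control limit, CAMSAP3, SRPK3 and CD36 were inside at 0.982, 0.976 and 0.953 CPM, and RPL24P6, ENSG00000255321 and CES1P1 outside at 1.021, 1.041 and 1.044 CPM. With limits of under 0.5 CPM and 8 CPM or more, 19 genes were left, so the set is mostly made of low levels close to its own limit.

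Each library of the MOLM13 knockout experiment held 4283204 to 6330489 reads on genes, so that 3 counts, taken as the floor of detection, were 0.474 to 0.7 CPM. PCGF1 RNA itself stood at 7.56, 8.19 and 7.3 CPM in the control libraries in DMSO and at 8.24, 3.43 and 4.84 CPM in the PCGF1 KO ones. The groups overlapped, and the difference was not called under SGC0946 (log2 fold change −0.59, SE 0.26, adjusted p = 0.168) or VTP50469 (−0.50, SE 0.26, adjusted p = 0.284). BCOR RNA was higher in the libraries labelled BCOR KO than in control ones (1.25, SE 0.09, adjusted p = 9.83e-11 under SGC0946). An edit that breaks a protein need not lower its RNA, so neither gene checks its label, and every direction below rests on the labels. The labels name the organism as mouse, whereas the reads were counted on human genes. Of 10 myeloid markers, 8 were at 1 CPM or more in control and 9 in PCGF1 KO cells in DMSO, and the list summed to 1059 to 1739 and to 1394 to 1611 CPM. None of 8 erythroid markers reached 1 CPM. The 4 B cell markers summed to 0.83 to 1.58 CPM without an edit and to 13.7 to 16.9 CPM in PCGF1 KO cells, where PAX5, one of the 93 genes, gave a mean of 14.7 CPM, MS4A1 had no count and CD79A was at 0.341 CPM. The T cell markers summed to 2.81 to 6.8 CPM in control and to no more than 0.845 CPM in PCGF1 KO cells, nearly all of it CD3D. The part of such cells in the levels of the 93 genes was not tested.

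In DMSO the 93 genes had a median level of 0.407 CPM in control cells. Without PCGF1 the median was 6.59 CPM, and they ranged from 4 to 198 CPM. The range was wide at the top only, with 57 genes between 4 and 8 CPM and 8 above 20 CPM. In control cells 13 genes had no count in any library. The 3 PCGF1 KO libraries were all above the 3 control libraries for 92 of the 93, as they had to be for most genes chosen this way (14.9% of the 12140 genes tested had this order). The exception was ENSG00000230903, at 0.211, 0 and 62.5 CPM in the PCGF1 KO libraries. It was over 10 CPM in 8 of 27 libraries, control ones included, and under 1 CPM in the other 19. Of the 93, it was the only gene with over 90% of its PCGF1 KO level from 1 library, and no comparison here called it.

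**Figure D2:**
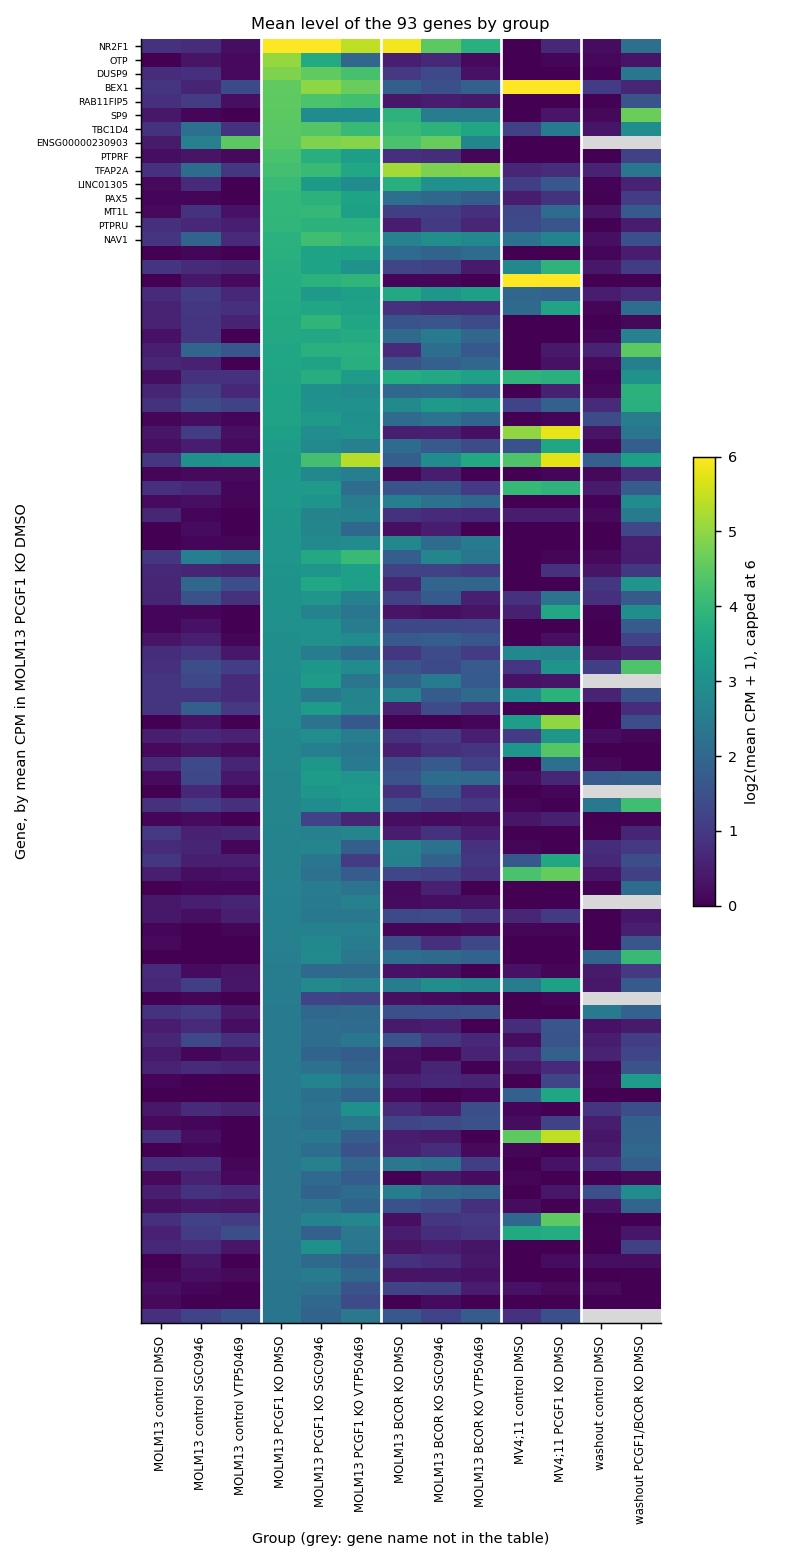
Mean level of each of the 93 genes (rows, by level in PCGF1 KO DMSO) in each group (columns), as log2 of mean CPM plus 1, with the 15 highest named, with values above 6 drawn as 6 and grey where the table does not list the name. The PCGF1 KO columns of MOLM13 are high throughout and the BCOR KO columns for some genes, with 18 at 4 CPM or more in DMSO. In MV4;11 in DMSO, 25 genes are at 4 CPM or more in the clone and 15 in its control cells.

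Transcription factors formed the largest group by role (16 genes) and the one with the highest median in PCGF1 KO cells, 10.9 CPM. Roles were assigned after the values were seen. NR2F1, a nuclear receptor that shapes neural and cranial development, was the highest of all. It stood at 1.05, 1.17 and 0.166 CPM with the control guide and at 198, 212 and 183 CPM without PCGF1. Next came OTP, a homeobox factor of the hypothalamus, with no count in any control library and 27.7, 34.5 and 34.9 CPM without PCGF1. SP9, a zinc finger factor of forebrain interneurons, went from at most 0.39 CPM to 18.8, 18.7 and 27 CPM. No control library came near the level of a PCGF1 KO library for any of these 3 genes. TFAP2A, a factor of neural crest and skin, reached 17.1, 16.7 and 18.2 CPM, and PAX5, the factor that commits cells to the B lineage, 15.8, 12.8 and 15.3 CPM. DLX3, a homeobox factor of skin and teeth, had no control count and 12.7, 14.4 and 11.8 CPM without PCGF1. FOXP2, HIVEP2, SOX18, ZEB1, HMX2, SMAD1, TCF24 and TCF7 were also in the group, at means of up to 12.4 CPM (FOXP2).

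The other roles were at lower levels. The 10 receptors and adhesion proteins of the cell surface had a median of 6.19 CPM, led by the receptor phosphatase PTPRF at 19.4, 19 and 16.9 CPM (at most 0.527 CPM in control) and its relative PTPRU at a mean of 14.5 CPM. The axon guidance receptors UNC5B, EPHB2 and EPHB6 and the synaptic protein SLITRK5 were at 4.16 to 6.47 CPM. Of 7 secreted or matrix proteins and collagen enzymes (median 5.22 CPM), IGFBP2, which binds insulin-like growth factors, was highest at 12.9, 11.4 and 12.1 CPM with no control count. The 9 kinases, phosphatases and regulators of small GTPases had a median of 7.46 CPM. They were led by DUSP9, a phosphatase of MAP kinases, at 27.9, 26.7 and 27.9 CPM, by RAB11FIP5, an effector of recycling endosomes, at 24.5, 21.2 and 19.7 CPM, and by TBC1D4, a Rab GTPase activating protein of glucose transport, at 20.1, 18.5 and 24.4 CPM. The 6 channels, pumps and transporters had a median of 6.73 CPM and the 6 cytoskeletal proteins 5.01 CPM. Among 39 genes in none of these groups were BEX1, a small protein of neural tissue (17.7, 20.3 and 28.9 CPM), the metallothionein pseudogene MT1L (13.3, 16.9 and 13.7 CPM) and LINC01305 (17.5, 12.6 and 17.3 CPM).

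Lists of developmental genes were compared with the set. Of 51 homeobox genes outside the HOX clusters that had a count in some library and were under 1 CPM in control cells, 6 (11.8%) were in the set, among them OTP, DLX3, ZEB1 and HMX2. The share was 0.61% of all 15240 such genes. Other developmental transcription factors gave 4 of 84 (NR2F1, TFAP2A, PAX5 and SOX18), adhesion and guidance receptors also 4 of 84 (SLITRK5, UNC5B, EPHB2 and EPHB6) and secreted signalling ligands and their binding proteins 1 of 72 (IGFBP2). None of 16 such HOX cluster genes, 38 germline genes, 14 genes of haematopoietic stem and progenitor cells or 22 granulocyte and monocyte genes was in it. Most silent developmental genes therefore stayed below the limit. These shares describe the selection and were not tested.

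In libraries that did not choose them, the genes were again high without PCGF1. Under SGC0946, the quasi-likelihood test of edgeR, adjusted by Benjamini-Hochberg over 12140 genes, called 88 of 93 higher and none lower in PCGF1 KO than in control cells, against 7.04% of all genes tested called higher and 4.1% lower. Under VTP50469 it again called 88 higher and none lower, against 7.7% and 3.72%, and 86 were called higher under both drugs. For this and the later counts of genes called in several comparisons, the share of all genes was not counted. Such joint counts describe the set only. The median log2 fold change of the 93 was 3.74 under SGC0946 and 4.38 under VTP50469, where that of all genes was −0.01 and 0.00. For 28 and 47 of the 93 the control libraries together held 3 counts or fewer, and with those set to a bound (3 counts over the control group) the medians were 3.65 and 3.83. All 93 passed the filter on low values, through the DMSO libraries of the rule if no others. Not called under SGC0946 were EPHB6, P3H4, LRRC26, ENSG00000230903 and ENSG00000272078, and under VTP50469 EPHB6, ALDH1A3, SRPK3, ENSG00000230903 and ENSG00000272078.

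All 16 transcription factors were called higher under both drugs, as were 9 of 10 surface receptors, 6 of 7 secreted or matrix proteins, 6 of 6 channels and transporters, 8 of 9 kinases and GTPase regulators and 6 of 6 cytoskeletal proteins. NR2F1 stood at 0.177, 0.547 and 1.37 CPM in the control libraries under SGC0946 and at 82.9, 69.7 and 64.1 CPM without PCGF1, a log2 fold change of 6.58 (SE 0.30, n = 3 libraries a group, edgeR adjusted p = 3.38e-15). BEX1 stood at 0.709, 0.365 and 0.513 CPM in control and at 27.1, 31 and 34 CPM without PCGF1 (5.75, SE 0.33, adjusted p = 3.37e-13). For both genes the lowest PCGF1 KO library was far above the highest control library. DUSP9 stood at 1.06, 1.28 and 0 CPM against 18.9, 22.7 and 24.4 CPM (4.76, SE 0.40, adjusted p = 9.92e-10), and IGFBP2 at 0.532, 0.365 and 0 CPM against 12.4, 14.5 and 12.6 CPM (5.33, SE 0.42, adjusted p = 1.9e-09). PTPRS, a receptor phosphatase of axons, stood at 0.532, 0.365 and 0.342 CPM against 7, 7.11 and 7.3 CPM (3.99, SE 0.46, adjusted p = 2.89e-07). These groups did not overlap either, although the levels were lower.

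Where control libraries had no count, only a bound on the fold can be given. Under VTP50469, P3H3, a prolyl 3-hydroxylase of collagen, was at 11, 13.4 and 11.6 CPM in PCGF1 KO libraries, at least 67.4-fold over the floor of 3 counts in the control group. The corresponding bounds were 56.8-fold for PAX5 (10.7, 9.15 and 10.6 CPM), 54.7-fold for DLX3 (9.19, 8.98 and 11.1 CPM), 36.6-fold for SP9 (6.99, 6.1 and 6.5 CPM) and 23.1-fold for TIAM1, an exchange factor for the GTPase RAC (3.86, 3.56 and 4.96 CPM). All 5 were called higher (adjusted p between 2.45e-12 for P3H3 and 4.14e-07 for TIAM1).

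**Figure D3:**
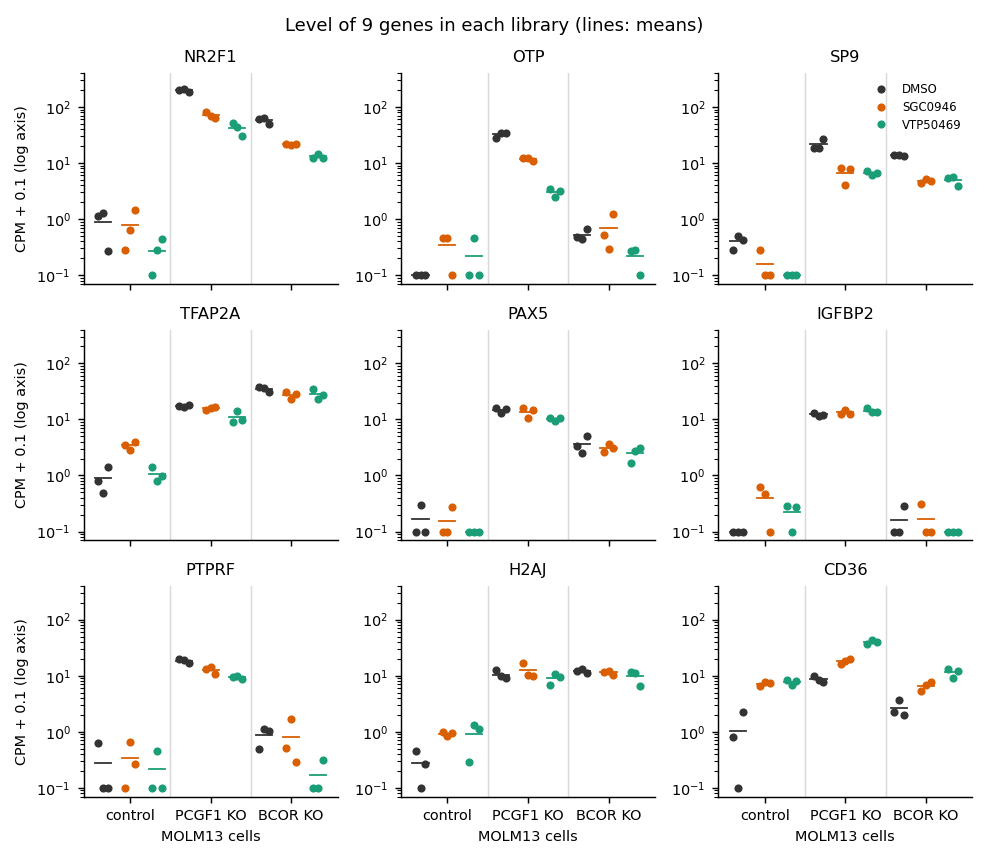
Level of 9 of the genes in each MOLM13 library, as CPM plus 0.1 on a log axis, with control, PCGF1 KO and BCOR KO cells along the horizontal axis, treatments in colour and a line at each mean. NR2F1, OTP and SP9 step down from DMSO to the drugs in PCGF1 KO cells, TFAP2A is highest in BCOR KO cells, IGFBP2, OTP and PTPRF are low there, and CD36 steps up with the drugs in all 3 genotypes.

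The drugs did not return the genes to their control levels, but many stood lower than in DMSO. In PCGF1 KO cells 71 of 93 genes stayed at 4 CPM or more under SGC0946 and 66 under VTP50469. None was under 1 CPM with SGC0946 and 1 was with VTP50469 (ALDH1A3, a retinaldehyde dehydrogenase, at 0.736, 0.339 and 0.513 CPM after 3.8, 7.54 and 5.49 CPM in DMSO). The mean was lower than in DMSO for 58 genes under SGC0946 and 71 under VTP50469, and the median ratio to DMSO was 0.903 and 0.735. Ratios of 0.5 or less were found for 5 and 15 genes, and of 2 or more for 1 and 2. Since the DMSO libraries were selected for high levels, a lower mean elsewhere is partly fixed by the choice. The drugs also differed in exposure time, and these ratios were not tested.

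Under VTP50469, 14 of the 16 transcription factors had a lower mean than in DMSO, with a median ratio of 0.661, as had 8 of the 9 kinases and GTPase regulators, with a median ratio of 0.756. NR2F1 went from 198, 212 and 183 CPM in DMSO to 50.8, 44.6 and 30.1 CPM under VTP50469, with SGC0946 in between. OTP went from 27.7, 34.5 and 34.9 CPM to 12.4, 12 and 10.7 CPM under SGC0946 and 3.31, 2.37 and 3.08 CPM under VTP50469. For both genes the 3 treatments did not overlap. SP9 was at 8.17, 3.95 and 7.65 CPM under SGC0946 and 6.99, 6.1 and 6.5 CPM under VTP50469, which overlapped each other but not DMSO. The median ratio of the 7 secreted and matrix proteins was 1.07 under VTP50469, and differences between roles were not tested.

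In BCOR KO cells the drugs could be compared between libraries that did not choose the genes. All 93 were tested because the filter counted all libraries, those of the rule included. With only the groups compared in the fit, 42 of the 93 passed it for SGC0946 and 41 for VTP50469. In BCOR KO cells in DMSO 42 of the 93 were under 1 CPM and could hardly be called lower. SGC0946 against DMSO in BCOR KO cells called 4 of the 93 higher and 2 lower (2.83% and 1.57% of all genes tested), and VTP50469 called 3 higher and 7 lower (4.22% and 3.02%). The median log2 fold change was 0.07 and −0.31. NR2F1 stood at 62.1, 64.3 and 49.2 CPM in DMSO, 21.8, 20.8 and 21.6 CPM in SGC0946 (−1.41, SE 0.18, adjusted p = 1.05e-05) and 12.3, 14.6 and 12.4 CPM in VTP50469 (−2.13, SE 0.19, adjusted p = 7.07e-09). SP9 stood at 13.6, 14 and 13.2 CPM, 4.32, 5.07 and 4.74 CPM (−1.49, SE 0.24, adjusted p = 0.000252) and 5.21, 5.46 and 3.85 CPM (−1.45, SE 0.24, adjusted p = 0.000136). Both genes were lower in every drug library than in any DMSO library. Under VTP50469 LINC01305 beside SP9, TBC1D4, the gap junction gene GJA3, the kinase gene SRPK3 and the muscle membrane gene BVES were also called lower.

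The genes called higher with a drug in BCOR KO cells were few. CD36, a scavenger receptor for fatty acids and a monocyte surface protein, stood at 2.14, 3.55 and 1.86 CPM in DMSO, 5.14, 6.82 and 7.59 CPM in SGC0946 (1.39, SE 0.32, adjusted p = 0.0101) and 13.2, 9.16 and 12.2 CPM in VTP50469 (2.19, SE 0.30, adjusted p = 7.73e-06). In control cells CD36 was at 0.703, 0 and 2.16 CPM in DMSO and between 6.38 and 8.21 CPM in the 6 drug libraries, and in PCGF1 KO cells it reached 36.6, 42.9 and 40.7 CPM under VTP50469. Among control libraries it was thus low in DMSO only. ZEB1, a repressor of epithelial genes, and ATP6V1C2, a subunit of the vacuolar proton pump, were called higher in BCOR KO cells under both drugs, and the myeloid peptidase ANPEP under SGC0946. ZEB1 rose from 0.389, 0.675 and 0.557 CPM to 2.88, 2.92 and 2.84 CPM under SGC0946 (2.39, SE 0.44, adjusted p = 0.000923). Under the drugs these 4 genes were above 1 CPM in control cells as well, ANPEP at 4.08, 4.92 and 5.64 CPM under SGC0946. Other genes of the set were too. In control cells under SGC0946, 22 of the 93 were at 1 to 4 CPM and 3 at 4 CPM or more. Under VTP50469 these counts were 10 and 2. The control DMSO libraries were chosen low, so this difference from DMSO was not tested.

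Without BCOR fewer of the genes were high. In DMSO, 18 of the 93 were at 4 CPM or more in BCOR KO cells, 33 were at 1 to 4 CPM and 42 were under 1 CPM, with a median of 1.39 CPM. The 3 BCOR KO libraries were all above the 3 control libraries for 49 genes (12.3% of all genes tested). As the control DMSO libraries were chosen low, this was not tested. Under the drugs no library of either group was part of the choice, although the control cells carry the guide of those chosen low in DMSO. There, 33 of 93 were called higher and none lower than in control cells with SGC0946 (3.8% and 3.29% of all genes tested). With VTP50469, 30 were called higher and 1 lower (4.11% and 3.11%). There were 26 called higher under both drugs, all of which were also called higher without PCGF1 under both. The median log2 fold changes were 1.39 and 1.72, or 1.25 and 1.5 with the genes of 3 counts or fewer in control cells at their bound. The 1 called lower was TUBB2A, a beta-tubulin, with no count in BCOR KO and 0.187, 0.708 and 0.689 CPM in control libraries under VTP50469 (adjusted p = 0.0466). Its call was lost with a replicate block and when any of 5 of the 6 libraries was left out.

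Of the 16 transcription factors, 8 were called higher without BCOR under both drugs, as were 3 of 9 kinases and GTPase regulators, 2 of 6 cytoskeletal proteins, 2 of 10 surface receptors, 1 of 7 secreted or matrix proteins, 1 of 6 channels and transporters and 9 of the 39 genes in no role. Differences between these shares were not tested. NR2F1 was again among the highest (4.84, SE 0.35, adjusted p = 8.51e-11 under SGC0946), and TFAP2A stood at 30.6, 22.8 and 28.1 CPM against 3.37, 2.73 and 3.93 CPM in control libraries (2.97, SE 0.22, adjusted p = 1.51e-10). TBC1D4 stood at 14.2, 13.8 and 12.9 CPM against 4.08, 3.1 and 3.59 CPM (1.88, SE 0.18, adjusted p = 2.06e-08). H2AJ, a histone H2A variant, stood at 11.5, 12.3 and 10.2 CPM against 0.886, 0.729 and 0.855 CPM (3.71, SE 0.37, adjusted p = 3.83e-08). No group overlapped for these genes. SP9 was called as well, at least 27.1-fold over the floor under VTP50469.

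Other genes were high in PCGF1 KO cells and low in BCOR KO cells. Under SGC0946, OTP was at 0.411, 0.195 and 1.14 CPM in BCOR KO libraries, RAB11FIP5 at 0.206, 0.195 and 0.759 CPM, DUSP9 at 2.06, 0.779 and 1.71 CPM, PTPRF at 0.411, 1.56 and 0.19 CPM and IGFBP2 at 0.206, 0 and 0 CPM. None of the 5 was called against control cells under either drug. In PCGF1 KO cells under SGC0946 every library of the 5 was above 10 CPM.

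The difference between the knockouts was tested directly, a comparison added after the data were seen. PCGF1 KO exceeded BCOR KO for 69 of 93 genes and was below it for 1 under SGC0946 (3.71% and 1.28% of all genes tested). Under VTP50469 the counts were also 69 and 1 (4.22% and 1.13%). As the genes were chosen for a high level without PCGF1, the prevailing direction follows in part from the choice. By the library names each MOLM13 knockout carried a single guide. The gene edited therefore cannot be told apart from the guide, its efficiency or the edited population. OTP differed by 4.25 (SE 0.39, adjusted p = 2.58e-08) and BEX1 by 4.09 (SE 0.27, adjusted p = 3.08e-11) under SGC0946. The 1 gene higher without BCOR was TFAP2A, at 14.5, 16 and 16.6 CPM in PCGF1 KO libraries (−0.80, SE 0.18, adjusted p = 0.00588 under SGC0946, −1.37, SE 0.19, adjusted p = 9.11e-06 under VTP50469). Several genes showed no detectable difference. H2AJ stood at 17, 10.1 and 9.97 CPM without PCGF1 under SGC0946 and differed from BCOR KO by 0.10 (SE 0.25, adjusted p = 0.94), HIVEP2, a zinc finger factor, by 0.05 (SE 0.25, adjusted p = 0.969), and SP9 by 0.45 (SE 0.26, adjusted p = 0.495). A missed threshold does not show that the knockouts act alike on these genes.

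**Figure D4:**
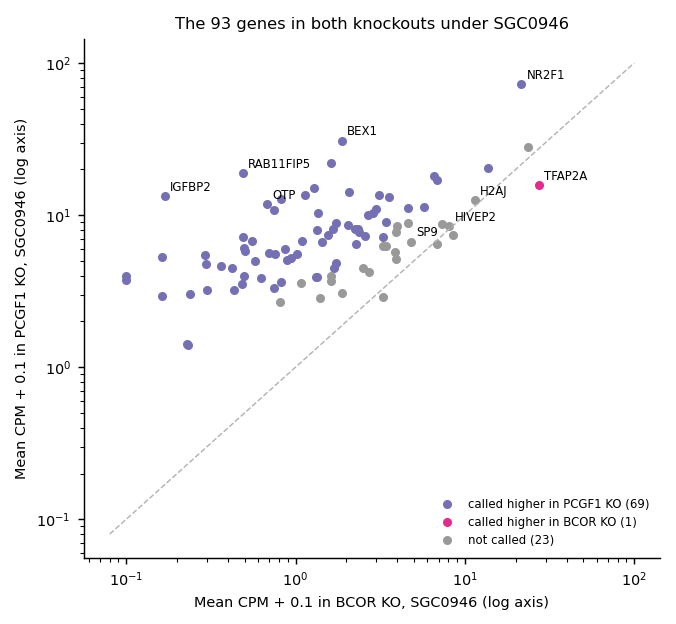
Mean level of the 93 genes under SGC0946 in PCGF1 KO (vertical axis) and BCOR KO (horizontal axis) MOLM13 cells, as CPM plus 0.1 on log axes, coloured by the edgeR call of the difference, with a dashed line of equality. Most points lie above the line (69 called higher in PCGF1 KO), TFAP2A lies below it, and H2AJ and HIVEP2 lie close to it.

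With or without PCGF1, most of the set was silent in MV4;11 cells. In control cells in DMSO 65 of the 93 were under 1 CPM, and of these 54 stayed under 1 CPM in the PCGF1 KO clone and 2 reached 4 CPM or more. Another 15 were already at 4 CPM or more in control MV4;11 cells. OTP, SP9, DLX3 and P3H3 were under 1 CPM in every MV4;11 library, and NR2F1 was at no more than 1.78 CPM. Only 36 of the 93 passed the filter on low values, some of them through the clone itself. edgeR called 19 higher and 2 lower in DMSO (9.31% and 6.97% of 11252 genes tested). In SGC0946 it called 17 and 4 (9.36% and 9.06%), and in VTP50469 13 and 1 (4.12% and 4.36%). The 4 lower in SGC0946 were not stable, becoming 8 with only the groups compared, 1 without clone replicate 1 or control replicate 1, and 2 without clone replicate 2 or 3. Scaled by library size alone, which raised all log2 fold changes by 0.33, 0.24 and 0.31, 23.3%, 16.6% and 15.1% of all genes were called higher and 2.04%, 3.58% and 1.63% lower, and of the 93 genes 21, 17 and 19 were called higher and 1 lower each time.

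The 2 genes that crossed both limits in MV4;11 as in MOLM13 were TIAM1 and HERC5, an interferon-induced ligase for the ubiquitin-like protein ISG15. TIAM1 stood at 0.209, 0.448 and 0.66 CPM in control and 7.85, 13.8 and 10.8 CPM in the clone in DMSO (4.23, SE 0.42, adjusted p = 4.6e-09), and HERC5 at 1.46, 0.896 and 0.44 CPM against 4.14, 5.88 and 12.8 CPM (2.57, SE 0.42, adjusted p = 3.79e-05). Neither gene overlapped between the groups. They were also the 2 genes of the set called higher in every comparison of cells labelled as lacking PCGF1 with control cells, in both lines and the washout experiment, leaving aside the DMSO libraries of the rule. They were 2 of 9 genes called higher in the clone under all 3 treatments, with TBC1D4, WWC2, LZTS1, SLC12A7, SLC30A3, AMOTL1 and MMP2. Several of these 7 were already expressed in control MV4;11 cells. AMOTL1, a regulator of YAP at cell junctions, was at 22.3, 20.6 and 22 CPM against 33.8, 41.6 and 50.3 CPM, and MMP2, a gelatinase, at 3.76, 3.81 and 1.76 CPM against 18.3, 25.1 and 22 CPM. UNC5B had no count in control libraries and stood at 3.05, 4.3 and 3.29 CPM in the clone in DMSO, at least 16.3-fold over the floor (adjusted p = 2.21e-05).

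Some genes that were silent in MOLM13 control cells were abundant in MV4;11. IGFBP2 stood at 441, 421 and 421 CPM in control and 376, 322 and 398 CPM in the clone in DMSO, and was called lower there (−0.55, SE 0.09, adjusted p = 4.58e-05) and under SGC0946 (−0.27, SE 0.09, adjusted p = 0.0352). Both calls were lost when libraries were scaled by size alone. BEX1 stood at 577, 532 and 554 CPM against 180, 221 and 210 CPM (−1.77, SE 0.09, adjusted p = 2.42e-16), and was called lower under both drugs too, with either scaling. The direction of BEX1 in the MV4;11 clone was thus the opposite of that in MOLM13 cells. CD36 was at 17.1, 18.8 and 21.8 CPM against 53.7, 50.6 and 53.9 CPM (1.14, SE 0.15, adjusted p = 1.56e-06).

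In the washout experiment, part of the set was high in cells labelled PCGF1/BCOR KO. The table listed 87 of the names, of which 78 were under 1 CPM in control cells in DMSO, and of these 16 were at 4 CPM or more and 30 under 1 CPM in the KO cells. The median level was 0.111 CPM with the control guide and 1.73 CPM in the KO cells. The DMSO libraries held 21732246 to 47065530 reads on genes and the VTP50469 libraries 491592 to 10139313, so that the drug and the depth cannot be told apart. edgeR called 20 genes higher and none lower in KO than in control cells in DMSO (0.958% and 0.259% of 12741 genes tested). After 96 h of VTP50469 9 were called higher (0.573%, with 0.22% lower), after 48 h of washout 17 (0.934% and 0.44%) and after 96 h of washout 19 (0.918% and 0.44%), with none of the set lower at any time. At an unadjusted edgeR p under 0.05, 44 of the 64 tested genes of the set differed, in either direction, in each of the 4 comparisons. The share of all genes at that limit was not counted, so no excess is claimed from it. With replicate numbers as a block, the counts were 30, 17, 24 and 23 (1.77%, 1.18%, 1.76% and 1.88% of all genes called higher). With only the groups compared in the fit, the counts at 96 h of VTP50469 and after 48 h and 96 h of washout fell to 5, 1 and 1. The shares of all genes called higher fell too, to 0.225%, 0.0805% and 0.0475%. In DMSO that fit gave 29 (3.5%). Leaving out single libraries gave 11 to 16, 6 to 9, 5 to 17 and 7 to 16. Of the 87, 64 passed the filter, part of them through the KO libraries.

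P3H3, ATP6V1C2, H2AJ, PALM, ZEB1, TIAM1 and HERC5 were called higher at all 4 washout conditions. P3H3 stood at 0.174, 0 and 0.0403 CPM in control and 5.1, 3.81 and 6.93 CPM in KO libraries in DMSO (5.75, SE 0.68, adjusted p = 4.26e-05), and at 0.844, 0.521 and 0.285 CPM against 39.2, 32.5 and 42.7 CPM after 96 h of VTP50469 (6.01, SE 0.70, adjusted p = 0.000109). ATP6V1C2 stood at 0.124, 0.552 and 0.806 CPM against 11.4, 27.3 and 25.3 CPM in DMSO (5.41, SE 0.66, adjusted p = 4.26e-05). Both genes were far apart in every library of the 2 groups. ZEB1 was high after the drug in both genotypes, at 14.8, 9.91 and 7.99 CPM in control and 95.5, 132 and 69.5 CPM in KO libraries (3.07, SE 0.48, adjusted p = 0.0012). TIAM1 had no count in control libraries at 96 h and stood at 10.2, 44.8 and 19.5 CPM in KO libraries, at least 123-fold over the floor. The second of these, the KO replicate at 44.8 CPM, is the library of 491592 reads, in which 3 counts are 6.1 CPM. Without it the bound is 73.6-fold.

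The highest genes of the knockout experiment did not keep their order here. NR2F1 was at 3.04, 4.33 and 3.58 CPM in KO libraries in DMSO, against 0.224, 0 and 0.202 CPM in control ones. It was not called in the fit without a replicate block (4.43, SE 1.19, adjusted p = 0.0764), which does not show that it was unchanged. OTP was at 0, 0.0646 and 0.715 CPM in the KO libraries and IGFBP2 had no count in any washout library of MOLM13. SP9 did return, at 24.2, 24.6 and 23.6 CPM against at most 0.138 CPM in DMSO (7.84, SE 1.08, adjusted p = 0.000227). After 96 h of VTP50469 the KO libraries of SP9 were at 6.79, 0 and 0.662 CPM, lower than in DMSO (−3.49, SE 0.89, adjusted p = 0.00861), and after 96 h of washout at 10.4, 7.42 and 4.76 CPM. In KO cells the 96 h drug libraries against DMSO gave 5 of the set higher and 2 lower (10.6% and 17.1% of all genes tested), SP9 and LHFPL6 being the lower ones. With another scaling (RLE) the shares over all genes were 14.6% and 11.4%, and by library size alone 17.6% and 6.66%.

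Across the experiments, no gene was called higher in all 11 comparisons of knockout with control cells. There were 29 called higher in at least 1 washout comparison, and 6 in at least 1 washout and 1 MV4;11 comparison. The share of all genes with such joint calls was not counted, so no excess over other genes is claimed. The 10 subunits of PRC1.1 were all expressed in MOLM13 and none was in the set, with 4 of them called higher and none lower in PCGF1 KO than in control cells under SGC0946, and 1 higher under VTP50469 (7.04% and 7.7% of all genes tested were called higher). In BCOR KO cells 3 and 2 of the 10 were called higher, in the MV4;11 clone 1 to 3, and in the washout experiment none of 8 tested against control cells, with none lower in any of these. Of 12 tested PRC2 subunits none was called higher and 1 was called lower under SGC0946, and none in either direction under VTP50469. Of 8 tested HOX cluster genes, none of them in the set, 6 were called higher in PCGF1 KO cells under SGC0946 and 3 under VTP50469, and 6 and 5 in BCOR KO cells, with none lower. In the MV4;11 clone 2 to 8 of 11 were called higher and at most 1 lower, and in the washout experiment 1 or 2 of 13 higher and none lower. Outside the set, the genes whose level over the 18 MOLM13 drug libraries was most like the mean of the 93 were DNASE2 and SDC2 (r = 0.968 each), VAT1L (0.967) and CD59 (0.966). They were expressed in control cells in DMSO, SDC2 at 81.6, VAT1L at 41.8 and CD59 at 14.8 CPM, and stood at 280, 205 and 88.5 CPM without PCGF1. The libraries fall into 3 genotypes, which such a correlation largely reflects.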

How the data were processed

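The assay was RNA-seq of transcript 3′ ends. After trimming with bbmap and alignment to GRCh38 with STAR, the authors deposited raw read counts per gene, unnormalized and with replicates kept apart. The protocol names 2 library kits without saying which samples each served. The strand setting is not given in the sources used here, and the counter of the MOLM13 and MV4;11 knockout tables may differ from STAR. Lines naming no gene held 36.3% to 48.6% of reads per library in the MOLM13 knockout table, 21.4% to 29% in MV4;11 and at most 0.000815% elsewhere, and were left out. There were 38 per-sample columns not used here, mostly MV4;11 clones and pools that the labels do not tell apart. Libraries were grouped by the labels.

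CPM were computed from library totals. A gene was tested where 2 or more libraries of its table held 2 CPM or more, in R 4.3.3 by edgeR 4.0.16 (quasi-likelihood, TMM, 1 model over all groups of a table, Benjamini-Hochberg over all genes tested, called at an adjusted p under 0.05). All adjusted p-values are from this test. DESeq2 1.42.0, other scalings, no filter, a replicate block, only the groups compared and leave-one-out were alternatives. The test was checked on simulated counts. The floor of 3 counts covers counting error only. Nothing says that replicates are separate cultures, so p-values measure the spread between these samples, which may be technical. No 2 replicates agreed within sampling noise (lowest chi-square per gene 1.99).

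Same-numbered libraries deviated together in all 5 washout comparisons (correlation 0.20 to 0.78, above 0.1 in every pair), so blocked counts are given for the knockout comparisons. The SE and adjusted p of single genes in the washout experiment are from the fit without a block, which ignores this pairing. In the other tables no comparison had every pair over 0.1 (29 of 108 same-numbered pairs in MOLM13, 2 of 45 in MV4;11), so these were not treated as paired. The genes of the set and all lists were chosen with earlier results of these data known. Named genes were the highest in PCGF1 KO or BCOR KO cells, list members, those called lower or most changed by a drug, those at the limits, neighbours and the highest in MV4;11. Other examples by role, genes in several comparisons and the sequences shown were chosen after their values were seen. A few items are not reported here.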

Additional observations from a re-analysis of the deposited data

Results flagged for a closer look

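BEX1 differed in direction between the lines. Under SGC0946 the MV4;11 PCGF1 KO clone was lower than control cells, with a log2 fold change of −1.85 (SE 0.09, edgeR adjusted p = 9.51e-17) and libraries at 197, 180 and 194 CPM against 565, 599 and 568 CPM, whereas in MOLM13 the same contrast gave 5.75. Under VTP50469 the MV4;11 value was −1.25 (SE 0.09, adjusted p = 2.3e-12) and the MOLM13 value 3.87 (SE 0.28, adjusted p = 2.74e-11). Every library of the knockout lay below every control library in MV4;11 and above them in MOLM13. The difference between the lines was not tested, since the tables were made and scaled separately. The control levels differed as well, 565 to 599 CPM in MV4;11 and 0.365 to 0.709 CPM in MOLM13 under SGC0946, and the MV4;11 cells are 1 clone.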

How the results depend on the processing

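Of 198 counts of genes called under an alternative setting, 180 stayed within 1.5 times the count reported, and none of 6325 values of single genes reversed (414 lost their call). The 18 others concern the washout experiment and the limits of the rule, where 19 genes met the stricter limits; the cause was not tested. For comparisons between genotypes these counts hold the genes called higher only, so counts of lower calls were not among the 198. For a drug against DMSO they join both directions. Counted by direction, the 4 called lower in MV4;11 under SGC0946 ranged from 1 to 8. The 4 called higher by SGC0946 in BCOR KO cells became 2 without DMSO replicate 1, DMSO replicate 3 or SGC0946 replicate 3. At 96 h of VTP50469 the 9 became 17 without a filter, 20 with DESeq2 and 5 with only the groups compared. After 48 h of washout the 17 became 26 with DESeq2 and 1 with only the groups compared, and after 96 h of washout the 19 became 1 with only the groups compared. For the drug against DMSO in KO cells, the 7 became 11 with DESeq2 and 12 with only the groups compared. A fit of only the groups compared has fewer libraries from which to estimate the spread. In the knockout comparisons at 96 h of VTP50469 and after 48 h and 96 h of washout, it called 0.225%, 0.0805% and 0.0475% of all genes higher. DESeq2 called 1.55% and 1.98% of all genes higher at 96 h of VTP50469 and after 48 h of washout.

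With a replicate block the 96 h count was 17, and it changed no other count by over 1.5 times; in MOLM13 23 of 27 libraries and in MV4;11 8 of 18 correlated best with their own number, and in the washout experiment 24 of 24. Leaving out single libraries gave 11 to 16 in washout DMSO (11 without control replicate 3), 6 to 9 at 96 h of VTP50469, 5 to 17 after 48 h of washout (5 without control replicate 2 or 3), 7 to 16 after 96 h of washout (7 without control replicate 2, 8 without control replicate 3, 11 without KO replicate 1 or 3) and 4 to 7 for the drug against DMSO (4 without KO DMSO replicate 2). Without the library of 491592 reads the washout counts were 21, 9, 18 and 18. In MOLM13 the range was 85 to 88 for PCGF1 KO under SGC0946 and 27 to 30 for BCOR KO. In MOLM13 libraries 3 counts are 0.474 to 0.7 CPM, so a gene listed under 1 CPM was at or near the limit of detection, which does not show that it was absent.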

Other observations

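The set was also listed for 4 DMSO libraries of K562, a myeloid leukaemia line with a BCR-ABL fusion, and 4 of HUDEP-2, an erythroid progenitor line. Of the 87 names listed, 58 were under 1 CPM and 18 at 4 CPM or more in K562, and 68 and 12 in HUDEP-2. Some genes that were low in MOLM13 control cells were expressed in K562. PTPRS was at 6.41, 7.66, 6.92 and 3.31 CPM in the K562 libraries, UNC5B at 11.3, 8.71, 8.79 and 14.1 CPM and CD36 at 25.1, 20.2, 13.4 and 21 CPM. OTP, DLX3 and TIAM1 had no count in any of the 4. No knockout was compared in these lines here, and the values are given as levels only.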
